A study of Mus musculus with 10 samples.

Results

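The 967 regions described here were called as accessible in both peak lists of IFNγ-treated Myc-CaP cells (IFNγ alone, and oxaliplatin with IFNγ) and in none of the 3 lists without IFNγ. They were chosen by these calls. The distinct intervals of the 5 lists were merged where they overlapped by 1 bp, which gave 211107 regions, and a region was kept when intervals of the IFNγ and the Oxali + IFNγ lists overlapped it and no interval of the Ctrl, Oxali or Cispl list did. The 967 made up 0.458% of all merged regions. Because the calls chose them, their number and heights in the lists are a description and carry no test.

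Chromatin accessibility was measured by ATAC-seq, in which a transposase inserts sequencing adapters into open DNA. Myc-CaP is a mouse prostate cancer line of the FVB/NJ strain, derived from a male with a prostate-directed Myc transgene, so that all groups share the Myc transgene and stand for 1 line. Cells were left untreated (Ctrl), or received 2 µM oxaliplatin (Oxali), 2 µM cisplatin (Cispl), IFNγ at 1000 pg, for which the labels give no volume and the methods 1 ng/ml (IFNγ), or 2 µM oxaliplatin together with IFNγ at 1000 pg (Oxali + IFNγ), all for 48 h. Each group had 2 libraries, which the authors pooled before peaks were called, so no list has replicates and no difference could be set against replicate spread. By genome background, which is proportional to read number, the IFNγ list had 79.3% of the depth of the Ctrl list and was the shallowest, and the other treated lists had 92.9 to 113.4%. Among markers of prostate and other epithelium, Foxa1, Hoxb13, Krt8 and Krt18 had a Ctrl region at their start site while Epcam and Cdh1 had none. Such a region was also found for 2 of 5 leukocyte, 2 of 4 fibroblast and 1 of 3 endothelial markers, so an open start site did not separate the cell types.

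IFNγ binds a receptor that signals through the kinases JAK1 and JAK2 to STAT proteins, which dimerise, enter the nucleus and bind gamma-activated sites (GAS). Interferon regulatory factors (IRFs), several of them induced by interferon, bind IRF elements built of repeated GAAA cores. Among the best known targets are the interferon-induced GTPases, antigen presentation genes and the chemokines Cxcl9 and Cxcl10. AP-1, a dimer of Fos and Jun proteins, binds many distal accessible sites in epithelial and cancer cells and responds to stress and growth signals.

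The sequences below span 100 bp on each side of the summit, from mm10 (GRCm38), + strand, and the regions are numbered IR1 to IR967 by the lower of their −log10 q-values in the IFNγ and Oxali + IFNγ lists. IR1 ranks first by this measure and lies at the start of Sin3a (chr9:57072157-57072357). IR16 in an intron of Rbfox3 (chr11:118508851-118509051) is the only region among the 34 named by the rule (the 20 of lowest q, those at interferon genes and up to 20 at start sites) with a GAS or IRF letter match within 100 bp of the summit. IR501 (chr13:74596380-74596580) and IR403 (chr4:59452503-59452703) hold both letter patterns. IR53 (chr19:47764445-47764645) and IR63 (chr11:102810763-102810963) are the strongest that hold an AP-1 match, lie over 500 bp from any interval of the lists without IFNγ and have no raised local background in the IFNγ list. IR1, IR53, IR63, IR403 and IR501 were chosen for printing after their values were seen. Capitals mark GAS (TTCNNNGAA) and IRF (GAAANNGAA) letters in IR16, IR403 and IR501 and AP-1 letters (TGANTCA) in IR53 and IR63, on either strand. IR1 holds none of these matches.
IR1: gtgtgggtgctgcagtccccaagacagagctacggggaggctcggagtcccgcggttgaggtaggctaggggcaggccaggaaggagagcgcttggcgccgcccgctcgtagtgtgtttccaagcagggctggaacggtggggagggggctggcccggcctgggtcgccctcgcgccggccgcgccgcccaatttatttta
IR16: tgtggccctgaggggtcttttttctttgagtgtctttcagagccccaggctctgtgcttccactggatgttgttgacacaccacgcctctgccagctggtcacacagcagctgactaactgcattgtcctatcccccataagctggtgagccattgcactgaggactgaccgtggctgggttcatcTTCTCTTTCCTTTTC
IR501: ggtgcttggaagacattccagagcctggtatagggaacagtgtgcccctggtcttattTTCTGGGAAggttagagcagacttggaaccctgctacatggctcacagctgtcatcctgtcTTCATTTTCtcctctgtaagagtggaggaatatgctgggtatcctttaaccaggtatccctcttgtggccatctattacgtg
IR403: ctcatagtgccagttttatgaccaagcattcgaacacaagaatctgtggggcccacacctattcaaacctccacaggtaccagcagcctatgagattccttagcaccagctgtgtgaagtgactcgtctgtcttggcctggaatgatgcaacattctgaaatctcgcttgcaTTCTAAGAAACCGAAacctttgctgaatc
IR53: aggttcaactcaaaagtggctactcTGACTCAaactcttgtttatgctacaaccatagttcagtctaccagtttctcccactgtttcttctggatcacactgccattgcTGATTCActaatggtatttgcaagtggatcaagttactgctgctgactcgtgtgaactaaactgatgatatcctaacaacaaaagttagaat
IR63: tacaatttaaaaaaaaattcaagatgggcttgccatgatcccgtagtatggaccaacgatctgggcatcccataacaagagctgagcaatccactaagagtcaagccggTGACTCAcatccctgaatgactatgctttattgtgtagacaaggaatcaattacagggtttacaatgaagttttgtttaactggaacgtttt

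The lists differed in size, with 118949 distinct intervals in IFNγ, 122298 in Ctrl, 158621 in Oxali, 174048 in Cispl and 174709 in Oxali + IFNγ. The counts below were not adjusted for list size. By count, the pairing of the 2 IFNγ lists was not a frequent one. Of the 10 ways in which a region can be called in exactly 2 lists, it ranked seventh by count under the rule as given. The count itself moves with the rule, to 2031 without the Cispl list, 622 with merging up to 500 bp apart and 245 at a q-value of at most 1e-05 in both lists, and the rank was not computed for these. Regions called only in Oxali and Oxali + IFNγ numbered 10170, those only in Cispl and Oxali + IFNγ 7097, and those only in Oxali and Cispl 3258. More regions than the 967 were also called only in Ctrl and Cispl (1609), only in Ctrl and IFNγ (1555) and only in Cispl and IFNγ (1150). The counts were 622 (Ctrl and Oxali + IFNγ), 315 (Ctrl and Oxali) and 257 (Oxali and IFNγ) for the 3 less frequent pairs. Regions called in both IFNγ lists and in 1 further list numbered 513 with Ctrl, 950 with Oxali and 986 with Cispl.

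**Figure D1:**
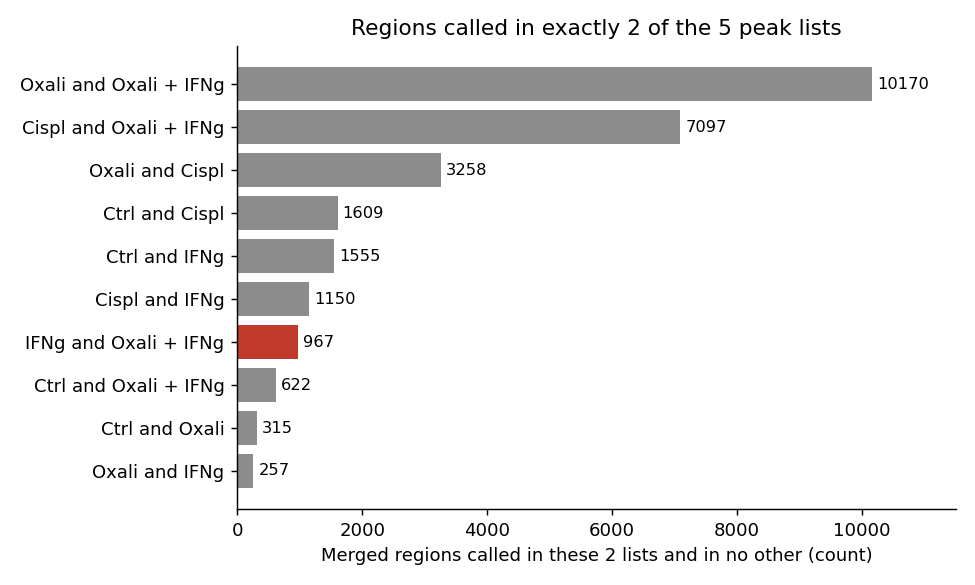
Number of merged regions (horizontal axis, count) called in exactly the 2 lists named on the vertical axis, for all 10 pairs. The 967 regions of the IFNγ and Oxali + IFNγ pair, in red, are fewer than the 1150 of Cispl and IFNγ and the 10170 of Oxali and Oxali + IFNγ.

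Most of these regions were low peaks close to what the caller could detect. A peak's height is given as its scaled pileup, the fragments stacked at the summit divided by the genome background of the list. In the IFNγ list the median scaled pileup was 2.81, from a median pileup of 27 fragments (range, 18 to 463), and in the Oxali + IFNγ list it was 2.87, from 37 fragments (22 to 453). The lowest scaled pileup that could be called at genome background was 1.87 in the IFNγ list and 1.71 in the Oxali + IFNγ list. Regions called in all 5 lists had medians of 9.77 and 14.8 in the same lists. The median width was 234 bp, against 761 bp for the regions of all 5 lists. A q-value of at most 0.01 was reached by 769 regions in the IFNγ list, 842 in the Oxali + IFNγ list and 675 (69.8%) in both, and 245 (25.3%) reached 1e-05 in both. The summits of the 2 lists lay within 50 bp of each other in 712 regions (73.6%). The rule bounds this distance, since both summits lie in the same merged region, and the share was not computed for other sets.

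The heights in the 2 lists are given as a description, since a call in both chose the regions and the calling floor of each list cuts them off. The scaled pileup was higher in the IFNγ list for 491 regions and higher in the Oxali + IFNγ list for 476. The median ratio of Oxali + IFNγ to IFNγ was 0.994, and the middle 80% of regions lay between 0.716 and 1.44. In the regions called in all 5 lists, whose peaks are higher, the median of this ratio was 1.27. It was above 1 in 69.7% of those regions, against 49.2% of the 967.

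**Figure D2:**
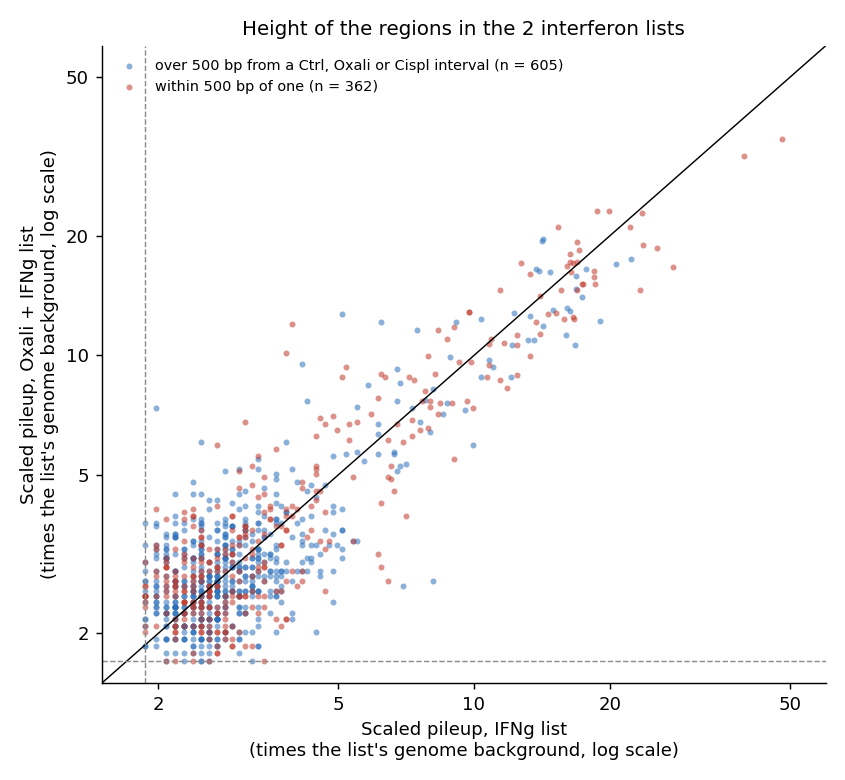
Scaled pileup of the 967 regions in the IFNγ list (horizontal axis) and the Oxali + IFNγ list (vertical axis), both in multiples of the list's genome background on log scales. Points are regions, red within 500 bp of an interval of the Ctrl, Oxali or Cispl list (362) and blue farther away (605). Dashed lines are the lowest callable scaled pileups, 1.87 and 1.71, and most points crowd just above them and on both sides of the line of equality.

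The height was then compared with what the lists without IFNγ could have called. For each region and each IFNγ list, the scaled pileup was divided by the lowest one that the other list would have called at the same relative local background. The lower of the ratios from the 2 IFNγ lists was kept. The median ratio was 1.37 against Ctrl, 1.34 against Oxali and 1.22 against Cispl, whose list ends at a −log10 p of 2.99 while the others reach 2.0. Taking the lowest of the 3 ratios, 116 regions were below 1, so that a peak of their height need not have been called in every other list. A ratio of at least 1.5 was found for 143 regions (14.8%) and of at least 2 for 3, with a maximum of 2.13. These counts are the same as against Cispl alone. Against Ctrl, 16 regions were below 1, 300 (31.0%) at 1.5 or more and 26 at 2 or more, and against Oxali these were 15, 268 (27.7%) and 21. In the other 824 regions a peak lower by less than 1.5 times could have gone without a call in at least 1 of the other lists.

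**Figure D3:**
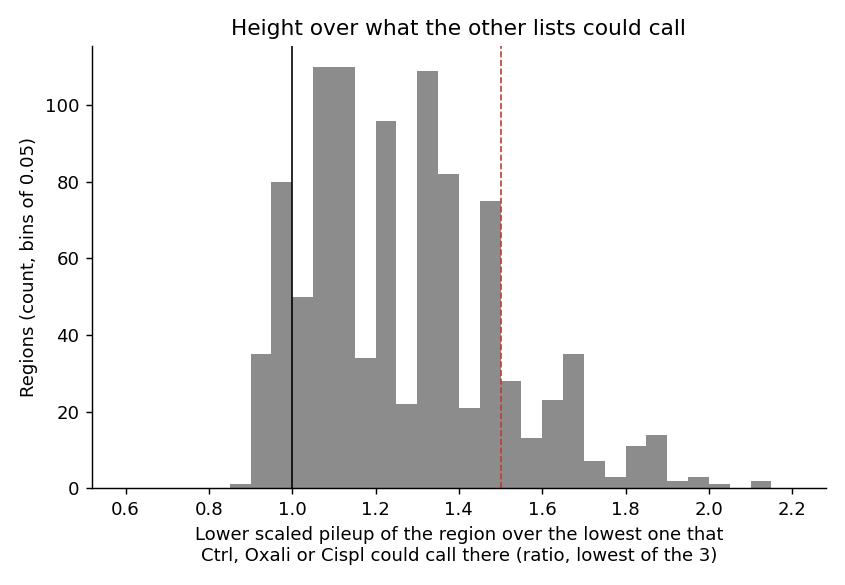
Distribution of the ratio between a region's scaled pileup and the lowest one that the Ctrl, Oxali or Cispl list could call there. The horizontal axis gives the lowest ratio over the 2 IFNγ lists and the 3 other lists. The vertical axis gives the count of the 967 regions in bins of 0.05. The solid line marks 1, below which 116 regions lie, and the dashed line 1.5, at or above which 143 lie.

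At the edge of the rule, the lowest −log10 p of a region, taken as the lower of its values in the 2 lists, was 2.01, and 167 regions (17.3%) were under 3. Just outside, among regions called in both IFNγ lists and in 1 further list, the lowest −log10 p of that further call was 2.04 in Ctrl, 2.04 in Oxali and 2.99 in Cispl. Most of these further calls were not near the edge, with medians of 7.64, 8.44 and 8.91, and 29 of 513, 24 of 950 and 1 of 986 were under 3.

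The regions of lowest q-value stood on raised local background. All of the 20 strongest had a local background in the IFNγ list of 2.76 to 24.2 times the genome background, while 599 of the 967 (61.9%) were at the genome background and 161 (16.7%) at 2 times or more. Of these 20, 14 lay within 500 bp of an interval of a list without IFNγ. IR1 (chr9:57072169-57072338), 129 bp from the start of Sin3a, which encodes the scaffold of a histone deacetylase corepressor, reached a pileup of 463, over a local background of 213, in the IFNγ list and of 453 over 199 in the Oxali + IFNγ list. An interval of a list without IFNγ lay 96 bp away from it. IR2 (chr8:105639905-105640121), in an intron of Ctcf, which encodes the insulator protein, had pileups of 214 over 77.1 and 225 over 93.3. It was 1952 bp from the nearest such interval. IR3 (chr10:77975729-77975896), between genes near 1810043G02Rik, had 162 over 60.0 and 189 over 70.6. IR4 near Sfi1, IR5 in an intron of Parva (an integrin-linked actin adaptor) and IR6 at the start of Tut4 (a uridylyltransferase of RNA ends) lay 217, 107 and 180 bp from such an interval. Glud1, Fam83e, Zfp143, Ckap4, Pinlyp, Dtnb, Gm13283, Rybp, Zfp36, Rbfox3, Paxip1, Aatk, Lbh and Reep6 were the genes at or nearest to IR7 to IR20. None of these 20 genes was on the interferon lists, which hold no gene that encodes an interferon.

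**Figure D4:**
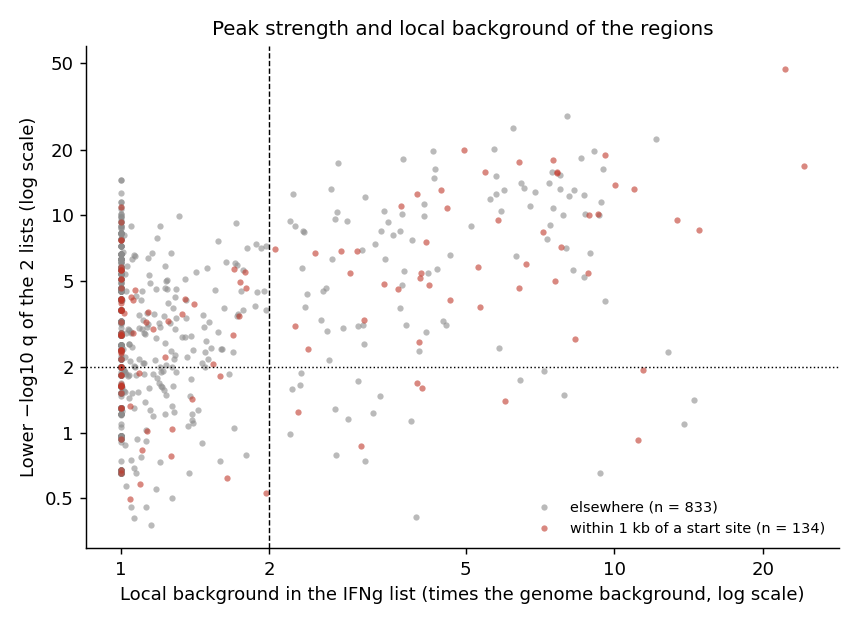
Lower −log10 q of the 2 IFNγ lists (vertical axis, log scale) against the local background in the IFNγ list in multiples of the genome background (horizontal axis, log scale) for the 967 regions, red within 1 kb of a start site (134) and grey elsewhere (833). The dashed line marks a background of 2 and the dotted line a q-value of 0.01; the strongest regions lie to the right of the dashed line.

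Some of the strongest regions at genome background were in repeats. Of the 245 regions whose q-values were 1e-05 or lower in both lists, 30 were masked as repeats over their whole length in the reference, and 59 of all 967 were (6.10%, 4.76 to 7.79; 95% Wilson interval, which covers counting error only, as for all shares below), against 3.28% of all merged regions. The share was also above that of all regions in 7 of the other 9 pairs, with and without the IFNγ list. It was 6.17% only in Cispl and IFNγ, 5.45% only in Oxali and IFNγ, 14.98% only in Ctrl and IFNγ, 16.2% only in Ctrl and Oxali, 9.97% only in Ctrl and Oxali + IFNγ, 6.32% only in Oxali and Cispl and 5.34% only in Ctrl and Cispl. It was below in those only in Oxali and Oxali + IFNγ (1.89%) and only in Cispl and Oxali + IFNγ (2.34%). IR26 (chr14:100405191-100405442), 120512 bp from Klf12, had pileups of 47 and 52 at genome background and, with IR25 (chr1:143972906-143973139) near Rgs2, the highest ratio to what the other lists could call, 2.13. Both were fully masked. So were IR38 and IR72, which lie beside each other 70798 and 71249 bp from Slx on the X chromosome, a multicopy gene. At least 50% of the bases were masked in 177 regions (18.3%, 16.0 to 20.9), against 16.0% of all merged regions. Whether reads of other repeat copies add to these pileups was not tested.

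By position, 437 regions (45.2%, 42.1 to 48.3) lay between genes and 341 (35.3%, 32.3 to 38.3) in introns. A further 134 (13.9%, 11.8 to 16.2) lay within 1 kb of a start site and 55 (5.69%) in exons. Of all merged regions, 37.3% lay between genes, 39.85% in introns and 6.93% in exons. The share between genes was 46.05% only in Oxali and Oxali + IFNγ and 35.3% only in Cispl and IFNγ. Start sites took 15.9% of all merged regions, 23.5% of those called in all 5 lists, 7.98% of those only in Oxali and Oxali + IFNγ and 14.3% of those only in Cispl and IFNγ. The median distance to the nearest protein-coding start was 19180 bp. Per chromosome, the share of merged regions in the set ran from 0.275% on chromosome 13 to 0.680% on chromosome 12, leaving out chromosome Y with 2 of 90. Of these regions, 50 (5.17%) lay within 10 kb of another. This share was not computed for other sets, so it cannot show whether the regions cluster. As to genes, 819 were nearest to 1 region each. Foxo1, a forkhead factor regulated by insulin signalling, and Zfp386 were each nearest to 4, at distances of 28016 to 350559 bp and 178538 to 494924 bp.

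Of the 134 regions within 1 kb of an annotated start, 16 covered one, and 72 were within 1 kb of a protein-coding start, of which 5 covered it. The others were near starts of other transcripts. Of the 134, 81 (60.4%) were within 500 bp of an interval of a list without IFNγ. Among all 967 this held for 362 (37.4%, 34.4 to 40.5), against 48.9% of the regions only in Cispl and IFNγ and 18.7% of those only in Oxali and Oxali + IFNγ. Of the 134, 101 had a q-value of at most 0.01 in both lists. Zfp36, whose product tristetraprolin promotes decay of AU-rich cytokine mRNAs, had IR15 (chr7:28378495-28378686), with pileups of 382 over 233 and 410 over 254. Zfp143 encodes a promoter-bound zinc finger factor and had IR9 with 265 over 92.2 and 215 over 105. IR21 stood at Stag2, a cohesin subunit, 68 bp from an interval of another list. Cebpd, a C/EBP factor of inflammatory responses, had IR50 (chr16:15888865-15889031), 1579 bp from its protein-coding start, with pileups of 87 over 35.6 and 152 over 54.7, and an interval of another list 50 bp away. IR39 at Ercc5, an endonuclease of nucleotide excision repair, and IR74 at E2f3, a cell cycle factor, lay 95 and 64 bp from such an interval. IR53 at Cfap43, in contrast, was 14971 bp from the nearest one and at genome background, with pileups of 47 and 46. IR13, 2854 bp from the start of Gm13283, lies beside the start of another transcript, in the stretch of chromosome 4 that also holds Ifnz, interferon zeta. Whether reads of similar copies add to its pileups was not tested. The rest of the 20 were at or nearest to Sin3a, Tut4, Dtnb, Aatk, Reep6, Ppp6r3, Tspo, Lipt1, Tram2, Sipa1l1, Ubl3 and Clasp1.

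Interferon genes lay beside these regions at a share whose interval holds that of all protein-coding genes. Of 95 annotated genes in 6 interferon lists, 2 had a region in the gene or within 5 kb (2.11%, 0.579 to 7.35), against 599 of 21924 protein-coding genes (2.73%). They were Cxcl10 and Pdcd1lg2, both from the list of chemokine, checkpoint and death genes, where 2 of 13 had one. In the lists of IFNγ signalling (15 genes), interferon-induced GTPases (18), class I presentation (16), class II presentation (8) and antiviral genes (25), 0 genes had one. Neither did any of 11 NF-κB or 14 p53 target genes. Within 50 kb the count was 8 of 95 (8.42%, 4.33 to 15.8), against 8.35% of all protein-coding genes (1830), and 0 for the NF-κB and p53 lists.

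Cxcl10 encodes a chemokine that draws CXCR3-bearing T cells. Its region IR910 lies inside the gene, 374 bp from the start site, and reached a pileup of 20, over a local background of 10.6, in the IFNγ list and of 39 over 20.4 in the Oxali + IFNγ list. Its −log10 q-values were 0.836 and 2.51, and an Oxali and a Cispl interval lay 108 bp away. The start site of Cxcl10 itself was called in all 5 lists, and its scaled pileup was 7.66 untreated, 9.04 with IFNγ, 11.99 with Cispl, 16.4 with Oxali and 16.1 with the combination. Pdcd1lg2, which encodes the checkpoint ligand PD-L2, had IR855 (chr19:29462511-29462699) in an intron, with pileups of 26 and 24 at genome background and −log10 q-values of 3.68 and 1.23. Thus neither region reached a q-value of 0.01 in both lists. Their ratios to what the other lists could call were 0.987 and 0.984.

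The regions within 50 kb of further interferon genes were as follows. IR34, 42833 bp from Stat2, a factor of type I interferon signalling, was the strongest, with pileups of 127 over 57.5 and 141 over 53.2. IR501, 42970 bp from Erap1, which trims peptides for class I presentation, had pileups of 24 and 50 at genome background and holds both a GAS and an IRF letter match. IR903 was 13879 bp from Nlrc5, the activator of class I genes, with pileups of 22 and 23. IR440 was 29677 bp from Icam1, an adhesion molecule, with 25 and 33. IR616 and IR723 lay 22711 and 46902 bp from Dhx58, a helicase of antiviral RNA sensing, and IR910 itself lies 20280 bp from Cxcl9.

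Most start sites of the interferon genes were called in untreated cells. Of the 95 genes, 75 (78.9%) had a start-site region in Ctrl, against 61.1% of all protein-coding genes. In all 5 lists 74 had one (77.9%, against 59.0%), and 9 had one in no list (9.47%, against 33.1%). In 3 genes (3.16%, against 0.666% of all protein-coding genes, or 146) the start site was called in both IFNγ lists and not in Ctrl, namely Ciita (the class II activator), Isg15 (a ubiquitin-like antiviral protein) and Mx1 (an antiviral GTPase), and in all 3 it was also called in Oxali and Cispl. Those sites are therefore not among the 967. Of 520 merged regions within 5 kb of the 95 genes, 252 (48.5%) were called in all 5 lists, against 40.4% of all merged regions, and 50 (9.62%) only in Oxali, Cispl and Oxali + IFNγ, against 11.15% of all.

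The shares of regions with STAT and IRF letters lay within the range of the other sets with the IFNγ list. The GAS letters stood within 100 bp of the summit in 40 regions (4.14%, 3.05 to 5.58), against 6.05% of all merged regions, 6.20% of those only in Oxali and Oxali + IFNγ and 6.35% of those only in Cispl and IFNγ. It was 4.23% in regions of the IFNγ list alone, 3.79% in those only in Ctrl and IFNγ and 3.89% in those only in Oxali and IFNγ, and 5.77% in regions of the Oxali + IFNγ list alone. Among the 675 members with a q-value of at most 0.01 in both lists it was 4.89% (3.50 to 6.79), an interval that holds the share of all merged regions. The stricter TTCCNGGAA was in 2 regions (0.207%), against 0.855% of all. The IRF letters were also in 40 regions (4.14%, 3.05 to 5.58), against 5.56% of all merged regions, 7.20% and 3.48% of the same pairs. In the other sets the IRF share was 3.60% (IFNγ list alone), 2.83% (Ctrl and IFNγ) and 4.67% (Oxali and IFNγ), and it was higher, 8.64% (8.23 to 9.06), in regions of the Oxali + IFNγ list alone. Among the 675 members the IRF share was 3.85% (2.64 to 5.58). At 1e-05 in both lists the IRF share was 2.04% (0.875 to 4.69), below that of all merged regions, and the GAS share 5.71% (3.43 to 9.36). The reversed letters of both, AAGNNNCTT and AAGNNAAAG, a control of the same letter content, were in 5.58% and 5.27% of the regions, so the matches were not above this control. In all, 77 regions (7.96%) held GAS or IRF letters and 3 held both, IR403, IR501 and IR596. Of the 20 strongest, 0 held GAS and 1 held IRF letters (IR16, with the matches TTCTCTTTC and TTCCTTTTC). The NF-κB letters GGANTTTCC were in 5 regions (0.517%), against 0.865% of all merged regions. A match is a description of letters and not a binding site, and no match says only that these letters are not within the window.

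AP-1 letters were the most frequent of the 9 patterns searched. TGANTCA was within 100 bp of the summit in 260 regions (26.9%, 24.2 to 29.8), against 20.99% of all merged regions and 24.0% of those called in all 5 lists. The share was 33.4% (32.5 to 34.4) in regions only in Oxali and Oxali + IFNγ and 17.0% (15.0 to 19.3) in those only in Cispl and IFNγ. It was 25.7% (20.7 to 31.4) only in Oxali and IFNγ, 13.6% only in Ctrl and IFNγ, 14.5% in the IFNγ list alone and 20.3% in the Oxali + IFNγ list alone. Of the 605 regions over 500 bp from any interval of the lists without IFNγ, 31.7% (28.2 to 35.6) held it, and of the 362 nearer ones 18.8% (15.1 to 23.1). Over 500 bp from the lists without a call, the share was 36.2% in regions only in Oxali and Oxali + IFNγ and 21.8% in those only in Cispl and IFNγ, in both cases also above that of the whole set. Among the 143 with a ratio of at least 1.5 to what the other lists could call, 49 (34.3%, 27.0 to 42.4) held it, 10 (6.99%, 3.84 to 12.4) held GAS and 4 (2.80%, 1.09 to 6.97) held IRF letters. IR53 had TGACTCA and TGATTCA in its window. IR63, in an intron of the connexin gene Gjc1, had TGACTCA and pileups of 38 and 45 at genome background. The peaks with AP-1 letters were of like height to the others, with a median scaled pileup of 2.81 in the IFNγ list for both and of 3.02 against 2.87 in the Oxali + IFNγ list. RUNX letters (TGTGGTT) were in 66 regions (6.83%, 5.40 to 8.59), against 10.3% of all merged regions, 6.35% only in Cispl and IFNγ, 5.66% only in Ctrl and IFNγ, 4.77% in the IFNγ list alone and 11.3% only in Oxali and IFNγ. CTCF core letters (CAGGGGGC) were in 10 (1.03%), against 1.97%. SP letters (GGGGCGGGG) and ETS letters (CCGGAAGT) were in 6 regions (0.6205%, against 1.99% of all) and 3 regions (0.310%, against 0.646% of all).

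**Figure D5:**
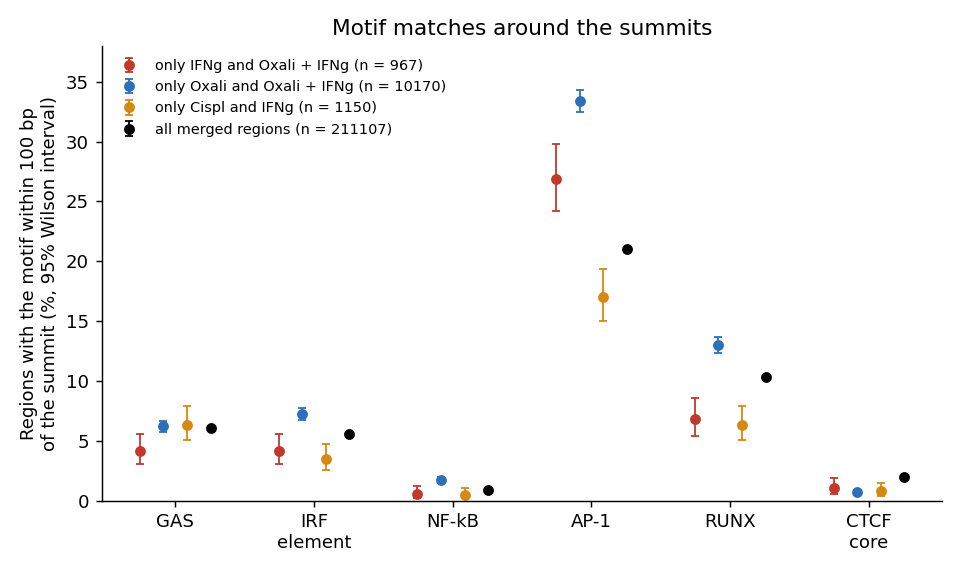
Share of regions with a motif match within 100 bp of the summit (vertical axis, %; bars are 95% Wilson intervals) for 6 letter patterns, in the 967 regions (red), the 10170 only in Oxali and Oxali + IFNγ (blue), the 1150 only in Cispl and IFNγ (orange) and all 211107 merged regions (black). GAS and IRF shares of the red points are at 4.14%. The GAS interval lies below the black point and the IRF interval holds it. The AP-1 share of 26.9% lies between the blue and black points.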

How the data were processed

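ATAC-seq libraries of Myc-CaP cells, 10 in 5 groups of 2, were processed by the authors. Per the labels and the methods, reads were trimmed with cutadapt, aligned to mm10 with Bowtie2 2.2.8, filtered with SAMtools and pooled by group, and peaks were called with MACS2 2.1.0 without a control library, after a shift that centres the insertion sites, and cleared of blacklisted sequence. Depth in reads per library was not analysed here. The deposited fold is a ratio, with 1 added to the pileup and to the local background. Its deposited −log10 p and −log10 q-value derive from a Poisson model of that pileup, and the authors' values were used as deposited.

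Here, whole-number pileups and backgrounds were solved from fold and p for 100% of intervals, and the lowest background of a list was taken as its genome background. Intervals were merged across lists by 1 bp. Start sites, genes and introns came from GENCODE M21, and sequence and repeat masking from RefSeq GRCm38.p6, the assembly of mm10. No interval ran past a chromosome end. Some markers and sequences are not reported here. Motifs were exact matches on both strands. An AP-1 match of TGANTCA can overlap other motifs. The 95% Wilson intervals given with shares reflect counting error alone. Scripts used Python 3.11.15, pandas 2.3.3, SciPy 1.17.1 and pysam 0.24.0 and were tested on simulated data.

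Groups were compared as pooled lists with no test, since pooling left no replicates. Named regions were the 20 with the highest lower −log10 q, those in or within 5 kb of an interferon gene, and up to 20 at start sites with a q-value of at most 0.01 in both lists. The regions, gene lists and alternatives were chosen with earlier results of these data known. The AP-1 alternatives were chosen after seeing the data.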

Additional observations from a re-analysis of the deposited data

How the results depend on the processing

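No paired analysis was possible because each peak list pools its libraries, and no library could be left out for that reason. Of 66 alternative values of the 9 results that answer a comparison, 34 stayed within counting error of the reported value, or within 1.5 times for a count, 32 moved, and 0 reversed. The cause of a move was not tested, except that stricter thresholds and narrower windows admit fewer regions by construction. The IFNγ list was the shallowest, and the part of depth in the calls was not tested.

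At a q-value of at most 0.01 in both lists, the median scaled pileups were 3.12 (IFNγ) and 3.18 (Oxali + IFNγ), and 0 interferon genes had a region within 5 kb. At 1e-05, 245 regions were left, with 18.4% at start sites, 5.71% with GAS, 2.04% with IRF and 33.1% with AP-1 letters, 27.8% mostly in repeats, median scaled pileups of 4.68 and 4.34, and 0 interferon genes. Without the Cispl list, 2031 regions met the rule, with medians of 3.01 and 3.10. With every list ended at the lowest −log10 p of the Cispl list, 0 interferon genes had a region. Merging up to 500 bp apart left 622 regions, with 9.81% at start sites, 30.4% with AP-1 letters, medians of 2.70 and 2.79, and 1 interferon gene.

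Within 50 bp of the summit, GAS letters were in 1.55%, IRF letters in 2.28% and AP-1 letters in 21.1% of the regions, against 2.73, 2.39 and 16.0% of all merged regions. Within 250 bp the shares were 13.4, 13.0 and 33.9%, against 15.0, 15.5 and 27.9%. The strict GAS letters gave 0.207%, a start-site window of 500 bp 7.86%, a limit of 20% masked bases 34.5% in repeats, and a window of 50 kb 8 interferon genes. Weighted to the GC content of the 967 regions, the other regions had GAS letters in 5.97%, IRF letters in 5.47% and AP-1 letters in 20.6%.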
